A study of Mus musculus with 18 samples.

Results

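Fos, Fosb, Fosl1, Fosl2, Jun, Junb, Jund, Egr1, Egr2 and Atf3 are early response transcription factor genes of the AP-1 and Egr families. They are followed here through sorted thyroid cells of mice, some of which had part of the gland removed by surgery. Every probe whose gene name in the scanner files equals one of these symbols was taken, which found 9 of the 10 genes. Jund is listed there under its older symbol Jund1 and was matched by its transcript accession. The 10 genes have 12 probes, out of 27962 gene names and 41174 probes on the array, and all 10 were among the 20455 genes tested.

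The thyroids came from C57BL/6 mice, labelled male/female. Digestion used collagenase with dispase 1, and the cells were kept in culture for 2 days before sorting. Sorting used Hoechst 33342, a fluorescent DNA dye, with and without verapamil, which blocks the pumps that export it. Cells that keep the dye low through such pumps form the side population, and the remaining cells form the main population. The 4 groups are the control side population (CSP, 6 arrays) and control main population (CMP, 3 arrays), both without partial thyroidectomy, and the side population (TSP, 6 arrays) and main population (TMP, 3 arrays) after partial thyroidectomy. All groups therefore passed through enzymes, culture, dye and sorting, and no array holds uncultured tissue. Neither the ages of the animals, the time since surgery nor the number of animals behind an array is given in the sources used here. The design text calls the arrays biological replicates, and p values measure the spread between these arrays. Sample RNA carried Cy5, and 1 common reference on every array, total RNA from several Swiss Webster tissues, carried Cy3. A value is the log2 ratio of sample over reference, so 1 unit is a 2-fold difference. Each probe's value is relative to the level of its own gene in that reference, so values of different probes are not compared with each other.

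AP-1 is a dimer of a Fos and a Jun protein, or of 2 Jun proteins, that binds DNA through a basic region next to a leucine zipper. Many of these genes are immediate early genes: a growth factor, a stress signal or the handling of cells switches them on within minutes through MAP kinases, before any new protein is made. In the thyroid, Fos and Jun are known as early targets of thyrotropin and of growth factors in follicular cells, and tissue dissociation by enzymes is known to raise Fos, Jun and Egr1 in many cell types.

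The stretches just before the gene starts are shown for Fos, Jun and Atf3, and a shorter site for Egr2, as 1 example each of the Fos, Jun, Atf and Egr genes among the 6 genes that were higher after surgery in each of the 3 main population pairs described later. Fosl2, also among those 6, is not shown. The sequences are from RefSeq (GRCm38.p6), where 8 of the 10 genes had an entry in the table used, all but Egr1 and Fosl1. Each runs 5′ to 3′ on the strand of the gene. Fos lies at chr12:85473640-85473889 (plus strand), Jun at chr4:95052223-95052472 (minus) and Atf3 at chr1:191183334-191183583 (minus), each being the 250 bases before the listed start. Capitals mark the motifs that were searched.
Fos: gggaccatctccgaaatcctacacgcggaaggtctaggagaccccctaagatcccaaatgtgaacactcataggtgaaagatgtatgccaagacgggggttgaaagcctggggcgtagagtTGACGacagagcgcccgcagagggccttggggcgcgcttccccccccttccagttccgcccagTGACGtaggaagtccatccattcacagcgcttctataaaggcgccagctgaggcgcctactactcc
Jun: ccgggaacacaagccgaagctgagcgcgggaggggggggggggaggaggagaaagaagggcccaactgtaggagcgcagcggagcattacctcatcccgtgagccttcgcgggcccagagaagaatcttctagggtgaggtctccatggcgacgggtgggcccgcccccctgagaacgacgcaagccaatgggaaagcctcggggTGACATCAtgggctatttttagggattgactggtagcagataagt
Atf3: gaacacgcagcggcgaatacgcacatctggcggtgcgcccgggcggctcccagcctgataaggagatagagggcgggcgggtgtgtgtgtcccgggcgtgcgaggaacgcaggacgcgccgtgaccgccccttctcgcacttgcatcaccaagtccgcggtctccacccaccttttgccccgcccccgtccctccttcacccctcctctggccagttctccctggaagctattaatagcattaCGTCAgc
The Egr2 site is 30 bases at chr10:67537792-67537821 (plus strand), from 77 to 48 bases before 1 of its 5 listed starts.
Egr2: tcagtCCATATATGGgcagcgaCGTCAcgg
In capitals, the first 10 letters of the Egr2 site match the CArG box, the binding sequence of serum response factor, and the other 5 are TGACG read from the other strand. The CArG box was found for 1 of the 8 genes, Egr2, against 1.62% of 27025 genes in the table. It was also found in 1.47% of the 32851 promoters of the same length in that table. Of the 5 Egr2 windows 4 hold a box, but not each at a separate site. All but 1 of these windows overlap and hold the same CCATATATGG shown above, and the remaining window holds CCTTTTTTGG. The count of windows is therefore not a count of sites. A gene counts here if any of its windows holds the motif. TGACG, the core of the cAMP response element, was present for 5 of the 8 genes (Fos, Fosb, Junb, Egr2 and Atf3), against 19.8% of genes and 17.8% of all promoters. Counted from the gene start, it lies at -129 to -125 and at -66 to -62 in Fos and at -7 to -3 in Atf3. TGANNTCA, the 8-base AP-1 element of the Jun type, was present for Jun, from 45 to 38 bases before its start, and for Jund, against 13.5% of genes and 11.9% of all promoters. TGANTCA, the 7-base AP-1 site, was found for none of the 8 genes, against 7.82% of genes and 6.75% of all promoters. GCGNGGGCG, the Egr site, was found for Fosb and Fosl2, against 5.33% of genes and 4.7% of all promoters. Both strands were searched; TGANNTCA and TGACG can overlap. Egr1 and Fosl1 were not searched, and neither were bases further than 250 from the start of any gene. These are matches of letters only, and no binding was measured.

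The arrays differed in quality by slide. The share of spots whose Cy5 signal was well above background ran from 38.8% (TSP 5) to 71.99% (CMP 1), and the median Cy5 background was 60 to 92.5 on slides 1 and 5, against 42 to 43 on slides 2, 3 and 4. The control side arrays CSP 1 and CSP 2 were on slide 1 together with TSP 1 and TSP 2, and CSP 3 and CSP 4 shared slide 3 with TSP 3 and TSP 4. CMP 1 and TMP 1 were alone on slide 2. On slide 4, CMP 2 and TMP 2 were beside CSP 5 and CSP 6, and on slide 5, CMP 3 and TMP 3 were beside TSP 5 and TSP 6. The arrays labelled TSP 1 and TSP 2 went against their label: over all genes on all arrays their median correlation was 0.944 and 0.954 with main population arrays, against 0.693 and 0.695 with the other side population arrays. Results that use them are therefore given with and without these 2 arrays. The mean log2 ratio of 11 thyroid follicular cell markers was 2.07 to 2.54 on the CMP arrays and 2.30 to 2.48 on the TMP arrays. It was -0.16 to 1.36 on the CSP arrays, highest on CSP 6, and -0.46 to 0.25 on TSP 3 to TSP 6, but 2.44 on TSP 1 and 2.39 on TSP 2. Of these markers 1 of 11 was well above background on all CSP arrays, 9 on all CMP arrays and 10 on all TMP arrays.

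All 10 genes were detected everywhere, and most lay above the tissue reference on each array. The main probe of each gene was well above the Cy5 background on all 18 arrays, and none was saturated. Fos, Fosb, Fosl1, Junb, Jund, Egr2 and Atf3 were above the reference on 18 of 18 arrays, Jun and Egr1 on 17, and Fosl2 on 16. Fos, Jun and Egr2 are each printed in 10 spots per array. The median SD of the log2 ratio between these spots of 1 array was 0.0936 for Fos, 0.153 for Jun and 0.188 for Egr2, below every SD between arrays of a group for these genes, which was at least 0.25. The second Fosl2 probe was dim, well above background on 8 arrays, with log2 ratios from -0.29 to 0.78.

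**Figure D1:**
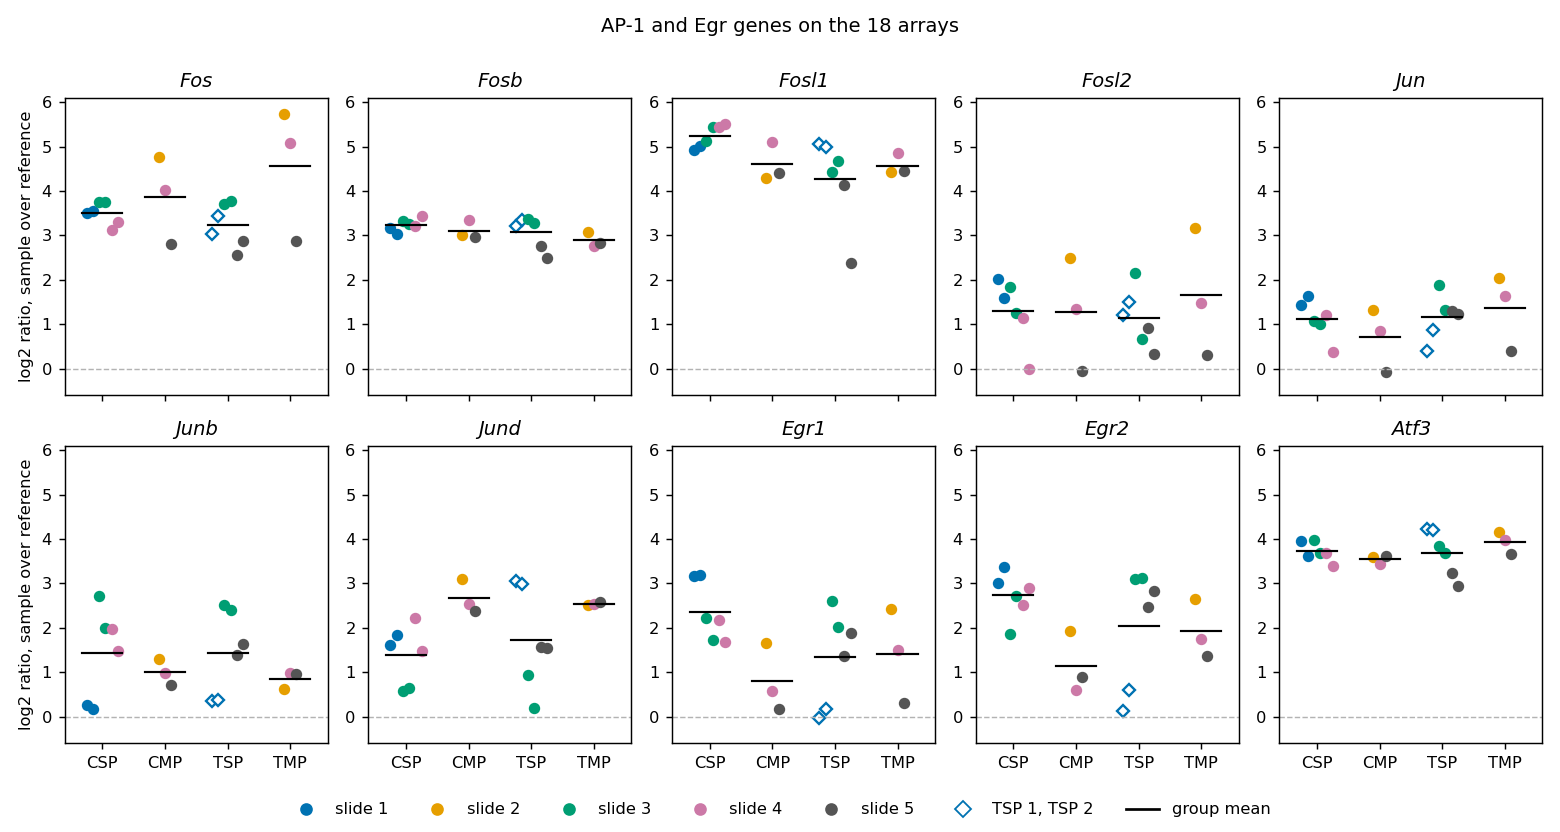
Log2 ratio of sample over common reference (vertical axis) for the main probe of each of the 10 genes, 1 point per array in 4 groups, coloured by slide, with the group mean as a line and TSP 1 and TSP 2 as open diamonds. Fos is at or above 2.55 on all 18 arrays, Egr1 and Egr2 are at most 0.59 on TSP 1 and TSP 2, and Jund is 3.06 and 3.00 on those 2 arrays.

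Of the genes followed here, the Egr genes and Jund differed most between the side and main populations without surgery. Egr1 and Egr2, zinc finger factors induced by growth signals, were about 3-fold higher in the side population, and Jund, the Jun gene that resting cells also express, was 2.41-fold lower. With all 18 arrays, none of these differences passed the test (limma, adjusted p under 0.05 over all genes). Without TSP 1 and TSP 2, which enter only through the spread shared by the 4 groups, all 3 passed, as did 19.2% of all genes. In these bulk samples fewer cells of a type and less RNA per cell cannot be told apart.

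Egr1 ran from 1.67 to 3.18 on the CSP arrays, with a median of 2.20, and was 1.66, 0.58 and 0.16 on CMP 1, CMP 2 and CMP 3. The lowest CSP value lay just above the highest CMP value, so the groups did not overlap, and CSP 1 and CSP 2 (3.17 and 3.18) were the highest. The difference in Egr1 was 1.56 on the log2 scale (SE 0.57, 2.94-fold), with an adjusted p of 0.075 in limma on all arrays and 0.0241 without TSP 1 and TSP 2. Over 31 alternative settings its adjusted p ran from 0.00601 to 0.234.

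Egr2 ran from 1.87 to 3.37 in CSP (median 2.80), against 1.94, 0.59 and 0.90 in CMP. CSP 3, at 1.87, lay below CMP 1, so the groups overlapped in those 2 arrays only. The difference in Egr2 was 1.59 (SE 0.59, 3.00-fold), with a limma adjusted p of 0.0782 on all arrays and 0.00369 without TSP 1 and TSP 2 (0.0028 to 0.269 over the alternatives).

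Jund ran from 0.59 to 2.22 in CSP (median 1.54), against 3.09, 2.53 and 2.37 in CMP. No CSP array reached a CMP array, and CSP 3 and CSP 4 (0.59 and 0.64) were the lowest of all CSP arrays. The difference in Jund was -1.27 (SE 0.51, 2.41-fold lower), with a limma adjusted p of 0.104 on all arrays and 0.0203 without TSP 1 and TSP 2 (0.0203 to 0.324 over the alternatives). In all 31 alternatives Egr1 and Egr2 were higher and Jund lower in CSP, and 5, 7 and 5 of these gave a call. Without a block, settings that only left out TSP or TMP arrays could not change these differences, nor could those that changed the probe filter. The same direction there is therefore no check. The 31 also include the slide block without TSP 1 and TSP 2, a setting added after the data were seen.

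With all arrays 0 of the 10 genes were called between CSP and CMP by limma, where 14.8% of all genes tested were, and 3 of the 10 had an unadjusted p under 0.05, against 29.3% of all genes. Without TSP 1 and TSP 2, 3 of the 10 were called, against 19.2% of all genes, and the 2 called higher stand against 10.2% called higher. Groups did not overlap for 2 of the 10, Egr1 and Jund, against 20.3% of genes with a value on all arrays. The median difference of the 10 genes was 0.30, and that of all genes 0.06.

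The other AP-1 genes differed less between CSP and CMP. Fos itself differed by -0.36 (SE 0.49, limma adjusted p 0.675), with CSP from 3.13 to 3.76 (median 3.53) inside the CMP values of 4.76, 4.03 and 2.81. The CMP arrays spread over almost 2 log2 units, 1 CMP array on each of slides 2, 4 and 5. Fosl1, the Fos relative that lacks a transactivation domain, ran from 4.91 to 5.51 in CSP (median 5.28), against 4.30, 5.10 and 4.41 in CMP. CMP 2 lay within the CSP range, and the difference of 0.64 (SE 0.42) had a limma adjusted p of 0.346. Fosb, Fosl2, Jun, Junb and Atf3 differed by 0.041 to 0.44, each with a limma adjusted p of 0.514 or more. For these 5 genes the 95% intervals of the differences ran from -1.20 at the lowest (Fosl2) to 1.57 at the highest (Junb), so differences of up to those sizes are within the error.

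Only slide 4 held both control populations. There CSP 5 and CSP 6 minus CMP 2 gave 1.35 for Egr1, 2.11 for Egr2 and -0.68 for Jund. With the slide as a block, on all arrays, the limma differences were 1.95 for Egr1 (adjusted p 0.0509), 2.31 for Egr2 (0.0245) and -1.09 for Jund (0.0399), and 28% of all genes were called. With the slide block and without TSP 1 and TSP 2, a setting added after the data were seen, they were 1.25 for Egr1 (limma adjusted p 0.00827), 1.64 for Egr2 (0.0028) and -0.80 for Jund (0.0603), where 21.1% of all genes were called. The Egr genes were thus higher in CSP within slide 4 and under each slide fit, and Jund lost its call in the last of these.

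Markers of other cell types moved with the populations. The mean log2 ratio of 8 endothelial markers was 0.83 to 2.94 on CSP arrays and -1.79 to -1.30 on CMP arrays, and 8 of 8 were called higher in CSP (limma, all arrays). For 8 fibroblast markers the means were -1.48 to 1.06 and -4.11 to -3.33, and 6 of 8 were called higher. Of 8 epithelial markers 8 were called lower in CSP and of 11 follicular markers 7. Of 8 macrophage and leukocyte markers 1 was called higher (Cd14) and 3 lower (Cd68, Lyz2 and Ctss), with list means of -3.90 to -3.24 and -2.73 to -2.60. Of 3 C cell markers 1, Scg2, was called higher, with list means of 2.24 to 4.19 in CSP and 1.90 to 1.96 in CMP. The part of these cell types in the Egr1, Egr2 and Jund differences was not tested.

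**Figure D2:**
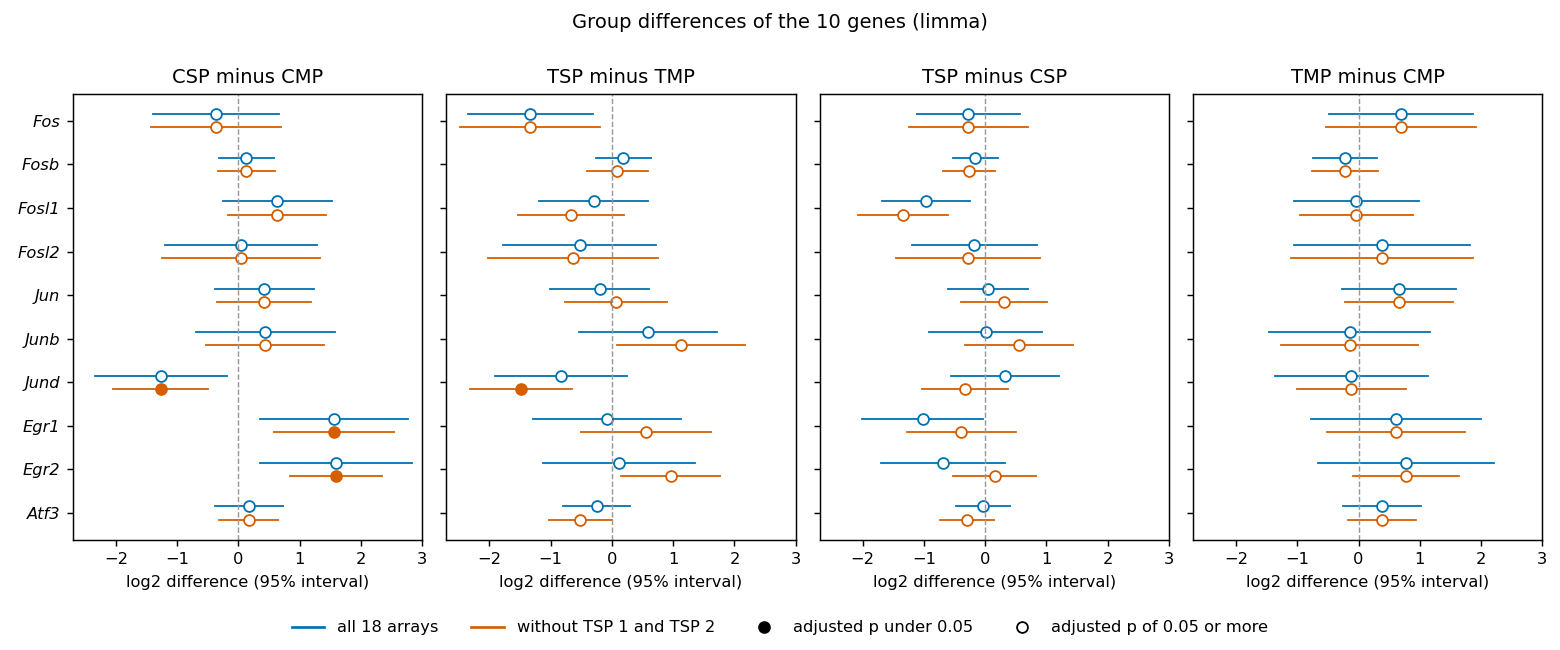
Log2 difference between 2 groups with its 95% interval (horizontal axis, limma) for the 10 genes in 4 comparisons, with all 18 arrays (blue) and without TSP 1 and TSP 2 (orange). Filled points have an adjusted p under 0.05: Egr1, Egr2 and Jund in CSP minus CMP, and Jund in TSP minus TMP, all without these 2 arrays.

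After surgery, Jund again was lower in the side population once TSP 1 and TSP 2 were left out, by 2.79-fold. Egr2 was 1.95-fold and Junb, a Jun protein that often restrains Jun, was 2.19-fold higher by its main probe and 1.44-fold by the second on the remaining 4 TSP arrays, and Fos was 2.52-fold lower, but these 3 did not pass the test. With all 6 TSP arrays no gene of the 10 passed.

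Jund was 0.94, 0.19, 1.57 and 1.56 on TSP 3 to TSP 6, against 2.51, 2.54 and 2.58 on TMP 1 to TMP 3. Every one of these TSP arrays lay below every TMP array, while TSP 1 and TSP 2, at 3.06 and 3.00, lay above all of them. The Jund difference was -0.83 (SE 0.51, limma adjusted p 0.527) with all arrays and -1.48 (SE 0.40, adjusted p 0.0157) without TSP 1 and TSP 2, with 0.0157 to 0.994 over the alternatives. On slide 5 alone it was -1.02 between TSP 5, TSP 6 and TMP 3.

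Egr2 was 3.11, 3.13, 2.47 and 2.82 on TSP 3 to TSP 6, 0.12 and 0.59 on TSP 1 and TSP 2, and 2.64, 1.76 and 1.37 in TMP. TMP 1 lay above TSP 5, so the groups overlapped, and TSP 1 and TSP 2 were the lowest of the 9 arrays. Egr2 differed by 0.12 (limma adjusted p 0.963) with all arrays and by 0.96 (SE 0.38, adjusted p 0.11) without these 2. Egr1 was 2.60, 2.01, 1.36 and 1.88 on TSP 3 to TSP 6, -0.038 and 0.18 on TSP 1 and TSP 2, and 2.43, 1.49 and 0.31 in TMP. The order of Egr1 over the arrays thus mixed both groups. Its difference was -0.074 (limma adjusted p 0.976) with all arrays and 0.56 (SE 0.50, adjusted p 0.556) without these 2. On slide 5 Egr1 was 1.32 and Egr2 1.28 higher in the TSP arrays than in TMP 3. With the slide as a block and TSP 1 and TSP 2 left out, the added setting, the limma differences were 1.03 for Egr1 (adjusted p 0.0252) and 1.40 for Egr2 (0.00752), and Jund, at -0.80, did not pass (0.0778), where 15.7% of all genes were called.

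Fos was 2.55 to 3.77 over the 6 TSP arrays (median 3.23), against 5.73, 5.07 and 2.87 in TMP. TMP 3 lay inside the TSP range and the other TMP arrays were the highest Fos values of the series. The difference was -1.33 with all arrays (SE 0.49, limma adjusted p 0.264) and without TSP 1 and TSP 2 (SE 0.54, adjusted p 0.121). On slide 5 it was -0.15, while TMP 1 and TMP 2 have no TSP array on their slides. Junb, by its main probe, was 2.51, 2.39, 1.39 and 1.64 on TSP 3 to TSP 6 and 0.62, 0.98 and 0.95 in TMP, without overlap, but 0.35 and 0.37 on TSP 1 and TSP 2. Its difference was 0.59 (limma adjusted p 0.718) with all arrays and 1.13 (SE 0.50, adjusted p 0.153) without these 2. The second Junb probe gave a smaller difference without these 2, 0.52 (1.44-fold, SE 0.26, limma adjusted p 0.229 over all probes).

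Groups of TSP and TMP did not overlap for 0 of the 10 genes with all arrays, against 3.93% of all genes. With all arrays limma called 0 of the 10 genes and 0% of all genes, and 1.08% of all genes with the slide as a block; 1 of the 10, Fos, had an unadjusted p under 0.05, as did 2799 of all genes. When TSP 1 and TSP 2 were left out it called 1 of the 10, Jund, against 14.7% of all genes, and 0 of the 10 higher, against 7.69%. Then groups did not overlap for 2 of the 10, Junb higher and Jund lower, against 23.9% of genes. In that fit 4 of the 10 (Fos, Junb, Jund and Egr2) had an unadjusted p under 0.05 in limma, against 26.1% of all genes.

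On slide 1, of the genes followed here, the Egr genes stood furthest apart between the CSP and TSP arrays. TSP 1 and TSP 2 minus CSP 1 and CSP 2 gave -3.11 for Egr1, -2.84 for Egr2 and 1.31 for Jund. Fos and Atf3 were -0.30 and 0.42 apart on the same 4 arrays. On slide 3, which also holds 2 CSP and 2 TSP arrays, the differences were 0.34 for Egr1, 0.83 for Egr2 and -0.050 for Jund. The levels of Egr1, Egr2 and Jund on TSP 1 and TSP 2 were thus those of main population arrays or beyond, as for the follicular markers given above.

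In the main population, 6 of the 10 genes were higher after surgery in each of the 3 pairs of arrays with the same number and slide, and none was lower in all 3. These 6 are Fos, Fosl2, Jun, Egr1, Egr2 and Atf3, and their mean increases were between 1.31-fold and 1.72-fold. No gene of the 10 passed the test over all genes. The pairs are CMP 1 and TMP 1 on slide 2, CMP 2 and TMP 2 on slide 4, and CMP 3 and TMP 3 on slide 5.

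Jun, the main partner of Fos in AP-1, was 1.32, 0.86 and -0.071 on CMP 1 to CMP 3 and 2.05, 1.65 and 0.40 on TMP 1 to TMP 3. The groups overlapped, but each TMP array lay above its own CMP array, by 0.72, 0.79 and 0.47. Egr2 differed by 0.70, 1.16 and 0.47 within the pairs, from CMP values of 1.94, 0.59 and 0.90 to TMP values of 2.64, 1.76 and 1.37. The SD over the pairs was 0.17 for Jun and 0.35 for Egr2, and in both the third pair gave the smallest difference.

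Fos differed by 0.97, 1.04 and 0.063 within the pairs, from 4.76, 4.03 and 2.81 to 5.73, 5.07 and 2.87. Egr1 differed by 0.77, 0.91 and 0.14, from 1.66, 0.58 and 0.16 to 2.43, 1.49 and 0.31. In both genes the first and second pairs differed by about 2-fold and the third by little, and CMP 3 and TMP 3 had the lowest level of their group. Atf3, a stress-induced factor that can pair with Jun proteins, differed by 0.57, 0.55 and 0.036, from 3.60, 3.43 and 3.62 to 4.17, 3.98 and 3.66. Atf3 was the single gene of the 10 whose TMP arrays all lay above all CMP arrays, against 2.96% of genes whose groups did not overlap. Fosl2 differed by 0.68, 0.12 and 0.36, from 2.50, 1.35 and -0.051 to 3.17, 1.47 and 0.31.

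The other 4 genes had no common direction. Fosb differed by 0.068, -0.58 and -0.14 within the pairs, Fosl1 by 0.12, -0.25 and 0.031 and Jund by -0.57, 0.012 and 0.21. Junb differed by -0.67, -0.0051 and 0.23 by its main probe and by -0.55, 0.34 and 0.22 by the second. The dim second probe of Fosl2 did not follow the first: its pairs differed by -0.035, 0.25 and -0.67.

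Of all genes with values on these 6 arrays, 15.1% were higher in all 3 pairs and 11% were lower in all 3. The median difference of the 10 genes was 0.62, 0.34 and 0.18 in the 3 pairs, and that of all genes 0.07, -0.031 and -0.0087. With the pair as a block, limma called 0 of the 10 genes and 6 of all genes (0.0293%), while 6 of the 10 had an unadjusted p under 0.05, against 6% of all genes (1227 genes). The unadjusted p values were 0.000478 for Egr2, 0.000987 for Jun, 0.00317 for Fos, 0.00425 for Egr1, 0.0357 for Fosl2 and 0.0388 for Atf3 in limma, and the adjusted values ran from 0.239 to 0.814. Without the block limma called 0 of the 10 and 0% of all genes, with an unadjusted p under 0.05 for 0 of the 10 and 26 of all genes. This comparison and that of CSP with CMP share the CMP arrays. An exact permutation test of 3 pairs cannot go below 0.25. The same 6 genes were higher in all 3 pairs with the scanner software's own ratio, the authors' deposited value table or arrays centred on their median. These settings for the pairs were added after the data were seen. When arrays were scaled to each other 4 remained (Fosl2, Jun, Egr1 and Egr2), while Fos and Atf3 did not.

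**Figure D3:**
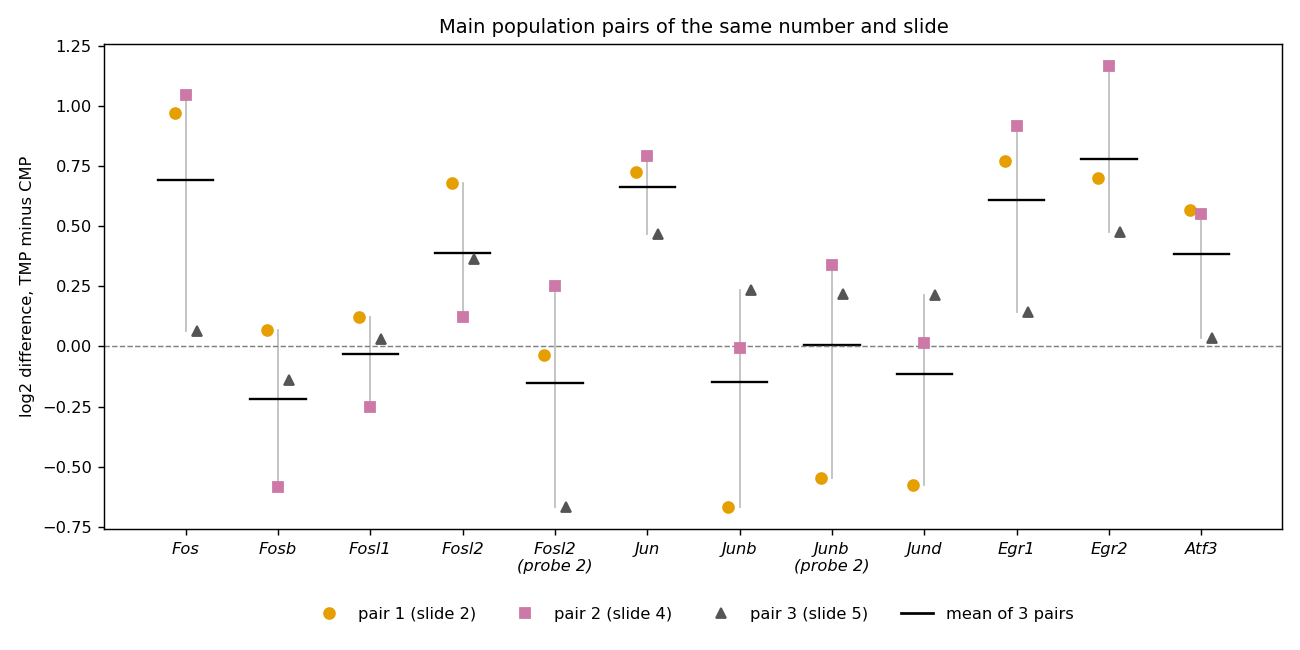
Log2 difference TMP minus CMP (vertical axis) within each of 3 pairs of arrays for the 12 probes, with the mean of the pairs as a line. Fos, Fosl2 (first probe), Jun, Egr1, Egr2 and Atf3 lie above 0 in all 3 pairs, and the third pair is the lowest of the 3 for 5 of these 6.

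Other measures moved in the same pairs. The mean difference of 8 macrophage and leukocyte markers was 0.86, 0.20 and 0.48 in the 3 pairs, and 6 of 8 were higher in all 3. The mean log2 ratio of that list was -2.73 to -2.60 in CMP and -2.52 to -1.87 in TMP, with 7 of 8 and 8 of 8 markers well above background on all arrays. The follicular markers differed by -0.10, 0.07 and 0.23, the endothelial by 0.12, 0.0026 and 0.07, the fibroblast by 0.28, 0.17 and -0.34, the epithelial by -0.12, 0.19 and -0.053 and the C cell markers by 0.19, 0.36 and 0.15. Median Cy5 background was 43 on both arrays of the first pair, 42.5 and 43 on the second, and 92 on CMP 3 against 75 on TMP 3. The part of leukocyte RNA and of background in the 6 increases was not tested.

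In the side population no gene of the 10 passed the test between mice with and without surgery. By the means of TSP 3 to TSP 6 the largest difference was in Fosl1, which was 2.53-fold lower than in CSP. Fosl1 ran from 4.91 to 5.51 in CSP (median 5.28). It was 5.07 and 4.98 on TSP 1 and TSP 2 and 4.42, 4.67, 4.14 and 2.38 on TSP 3 to TSP 6. TSP 3 to TSP 6 all lay below every CSP array, which held for 0.806% of genes in either direction, and TSP 6 stood far below the others. Raw Cy5 of Fosl1 was 5057 on TSP 6, against 1505, 2034 and 3626 on TSP 3 to TSP 5. Raw Cy3 was 265 on TSP 6, against 177, 170 and 276. The raw intensities thus do not show the low value of TSP 6, which appears after background correction and normalization. TSP 6 also enters the 2.53-fold difference. The Fosl1 difference was -0.96 (SE 0.34, limma unadjusted p 0.0116, adjusted p 0.503) with all arrays and -1.34 (SE 0.35, unadjusted p 0.00119, adjusted p 0.9998) without TSP 1 and TSP 2. Neither passed the test. Without TSP 6 it was -0.59, and on slide 3, the slide with control arrays beside TSP arrays of the side population profile, it was -0.74. With the slide as a block it was -0.60, and -1.05 when TSP 1 and TSP 2 were also left out.

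Egr1 differed by -1.02 between TSP and CSP with all arrays (SE 0.47, limma adjusted p 0.527) and by -0.39 without TSP 1 and TSP 2 (SE 0.42, adjusted p 0.9998). With the slide as a block as well, it was 0.39 (SE 0.25, limma adjusted p 0.503), so its direction turned. Jun ran from 0.38 to 1.63 in CSP (median 1.14) and from 0.40 to 1.89 in TSP (median 1.26), and the ranges overlapped. TSP 1 and TSP 2 were 0.40 and 0.88, and TSP 3 to TSP 6 were 1.89, 1.32, 1.29 and 1.24. With the slide as a block and without TSP 1 and TSP 2, Jun differed by 0.89 (1.86-fold, SE 0.26, limma unadjusted p 0.00539, adjusted p 0.185), which did not pass the test. On slide 3 alone Jun differed by 0.56 and on slide 1, which holds TSP 1 and TSP 2, by -0.89. Atf3 ran from 3.39 to 3.98 in CSP (median 3.69) and from 2.94 to 4.22 in TSP (median 3.76). The CSP range of Atf3 lay inside that of TSP, whose highest values were those of TSP 1 and TSP 2. Fosb, a Fos family member of activated cells, ran from 3.02 to 3.44 in CSP (median 3.23), from 2.49 to 3.38 in TSP (median 3.25), and was 3.01, 3.34 and 2.97 in CMP and 3.08, 2.76 and 2.83 in TMP. The 4 groups of Fosb overlapped, and its values over all 18 arrays lay between 2.49 and 3.44. With all arrays limma called 0 of the 10 genes between TSP and CSP and 0% of all genes, with an unadjusted p under 0.05 for 2 of the 10 (Fosl1 and Egr1) and 1879 of all genes. The fit that leaves out TSP 1 and TSP 2 again called 0 of the 10 and 0% of all genes, with an unadjusted p under 0.05 for 1 of the 10 (Fosl1) and 713 of all genes. With the slide block as well, 0.088% of all genes were called. Over all arrays the groups overlapped for all 10 genes, where 0.46% of genes did not overlap. The median difference of the 10 genes was -0.17, and that of all genes -0.039.

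The effect of surgery was then compared between the populations as the difference of both differences, (TSP minus CSP) minus (TMP minus CMP). The largest values were -1.63 for Egr1 (SE 0.81, limma unadjusted p 0.0597) and -1.47 for Egr2 (SE 0.84, unadjusted p 0.096), both with an adjusted p of 0.9996. When TSP 1 and TSP 2 were left out they were -0.999 and -0.63, and Fosl1 had the largest, -1.31 (SE 0.56, unadjusted p 0.0314, adjusted p 0.9998). With the slide as a block as well, limma gave -0.22 for Egr1, -0.23 for Egr2 and -1.02 for Fosl1, with adjusted p values of 0.94, 0.94 and 0.843. Limma called 0 of the 10 genes and 0% of all genes in both fits, with an unadjusted p under 0.05 for 0 of the 10 and 223 of all genes with all arrays, and for 1 of the 10 and 125 of all genes without those 2.

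The probes of Junb disagreed, although they overlap. They lie at chr8:83563059-83563118 and chr8:83563097-83563156 on the minus strand of build mm7, the coordinates in the scanner files, and share 22 bases, shown here because both probes read the same stretch of the transcript.
Junb probe overlap: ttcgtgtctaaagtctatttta
The first Junb probe, the brighter and therefore the main one, was 0.26 and 0.18 on CSP 1 and CSP 2 and 1.47 to 2.72 on CSP 3 to CSP 6. The second was 2.56 and 2.43 on CSP 1 and CSP 2, inside its range of 2.26 to 2.74 over all CSP arrays. On TSP 1 and TSP 2, also on slide 1, the first probe gave 0.35 and 0.37 and the second 1.24 and 1.72. On slide 1 the first probe thus had its lowest values of the series, while the second kept CSP 1 and CSP 2 within the range of the other CSP arrays. The reference itself differed: the Cy3 intensity of the first probe ran from 3783 to 36737 over the 18 arrays, 9.71-fold, with the highest values on slides 1 and 2. For the second probe it ran from 3335 to 6272, 1.88-fold, and the median ratio of highest over lowest for all genes tested was 2.04. Fosb had an even wider Cy3 range, 394 to 7060 (17.9-fold), exceeded by 0.215% of genes, and was highest on slides 1 and 2 as well. The Cy3 range was 5.50-fold for Fosl1 and 3.85-fold for Atf3, and between 1.85-fold and 2.07-fold for Fos, Fosl2, Jun, Jund, Egr1 and Egr2. The part of the reference signal in the Junb, Fosb, Fosl1 and Atf3 ratios was not tested. By the second probe Junb was 2.26 to 2.74 in CSP and 2.43, 1.45 and 1.78 in CMP, a difference of 0.60 (SE 0.29, limma adjusted p 0.189 over all probes).

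**Figure D4:**
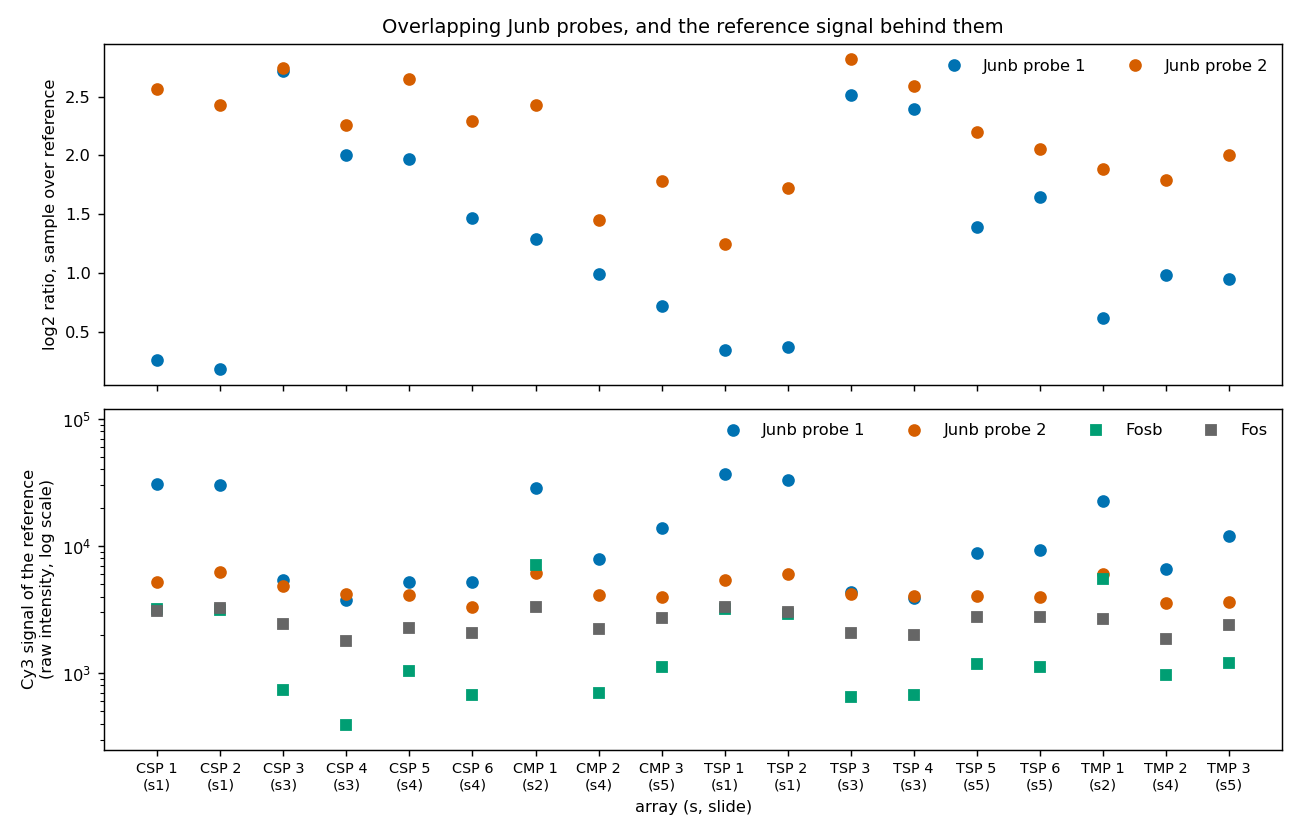
Upper panel, log2 ratio of both Junb probes on each of the 18 arrays (slide number as s1 to s5); lower panel, raw Cy3 intensity of the common reference for the Junb probes, Fosb and Fos on a log scale. The Cy3 intensity of Junb probe 1 and of Fosb is highest on slides 1 and 2, and the ratio of probe 1 is lowest on the 4 arrays of slide 1, while Junb probe 2 and Fos stay within a factor of 1.88 and 1.85.

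Some genes around AP-1 and Egr passed the test between the control populations. Their lists were chosen with earlier results of these data known. Of 30 other immediate early genes, 8 rose in CSP against CMP and 0 fell (limma, all arrays, where 14.8% of all genes were called in either direction), with a median difference of 0.65 against 0.06 for all genes. The largest were Ptgs2, the inducible prostaglandin synthase, at 3.25 (SE 0.73, adjusted p 0.00954) and Sgk1, a serum-induced kinase, at 3.17 (8.98-fold). Egr3 and Egr4, the remaining Egr family genes, were 2.28 (4.84-fold, SE 0.52, adjusted p 0.00993) and 2.21 (4.62-fold, SE 0.70, adjusted p 0.0395) higher. All 4 Egr genes were thus higher in CSP, of which Egr3 and Egr4 passed the test with all arrays. On leaving out TSP 1 and TSP 2, 9 rose and 2 fell, the latter being Klf6 (-1.01) and Btg2 (-0.93), named after their values were seen. That fit called 19.2% of all genes.

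Beside each count of this paragraph stands the 14.8% of all genes called in either direction. Among 20 genes of bZIP factors that can pair with or compete with AP-1 proteins, 4 rose in CSP and 0 fell, with a median of 0.51. Among them were Cebpd at 3.42, Cebpb at 2.80 and Ddit3 at 1.46, with limma adjusted p values of 0.00911, 0.0298 and 0.0139. Of 16 feedback inhibitors of MAP kinase signalling and Egr co-repressors, 6 rose and 1 fell (Dusp14, -1.43, named after its value was seen), with a median of 0.53. Dusp4, a nuclear phosphatase that removes phosphate from ERK, was 3.62 higher (12.3-fold, limma adjusted p 0.00817), Spry2 2.42, Dusp1 2.39 and Spry4 1.95. Of 21 kinases and factors upstream of Fos and Egr1, 4 rose and 1 fell, with a median of -0.058. Map2k4, which activates JNK, fell by 1.62 (limma adjusted p 0.0128), while Elk3 (1.26), Map2k3 (1.18), Rps6ka3 (0.91) and Mapk8 (0.88) rose, the last outside the naming rule. Both lists thus held called genes in both directions, and 9 of the 16 inhibitors were not called.

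Of 19 genes known as AP-1 targets, 10 rose and 2 fell in CSP against CMP, with a median of 1.25. For these and for the chaperones below, the share of all genes called was 14.8%. Spp1, which encodes osteopontin, was 5.41 higher (42.4-fold, limma adjusted p 0.0159), the matrix metalloproteinases Mmp3 and Mmp9 5.35 and 4.07 (40.7-fold and 16.8-fold), and Il6 3.90 (14.9-fold). Plau and Ccnd1 fell by 3.00 and 2.88, both named after their values were seen. Of 13 stress chaperones 0 rose and 1 fell, Hsp90aa1 by 1.00 (limma adjusted p 0.0265), with a median of 0.28. Hbegf stands in both the immediate early and the target list. Several of these targets, such as Spp1, Mmp3 and Fgf7, are also known products of stromal cells, whose markers differed between the groups as given above.

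After surgery no gene of these lists was called between TSP and TMP with all arrays. Without TSP 1 and TSP 2, 5 of the 30 other immediate early genes rose and 0 fell, led by Ptgs2 (3.13), Sgk1 (2.54), Gadd45g (1.37) and Plk3 (1.27). The counts were 3 and 0 of 20 for bZIP partners (Cebpb 2.52, Jdp2 1.37, Ddit3 1.19), 4 and 1 of 16 for feedback inhibitors (Dusp4 3.44, Spry2 2.31) and 9 and 2 of 19 for AP-1 targets (Mmp3 6.08, Spp1 6.05). They were 2 and 2 of 21 for upstream kinases (Elk3 2.83-fold higher, Mapk8 0.88, Map2k4 -1.40, Map2k7 -0.64) and 0 and 1 of 13 for chaperones (Hspb1 -1.66), where 14.7% of all genes were called. In TSP against CSP, in TMP against CMP and in their difference, no gene of the 6 lists was called in either fit.

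In the 3 main population pairs, 18 of the 30 other immediate early genes were higher after surgery in all 3 and 0 were lower in all 3, against 15.1% and 11% of all genes. The mean of the list differed by 0.26, 0.39 and 0.16. The largest mean increases, named after their values were seen, were Klf2 (0.71, 1.24 and 0.49), Ier5 (0.42, 1.26 and 0.29), Btg1 (0.58, 0.99 and 0.37), Egr3 (0.81, 0.16 and 0.56) and Gadd45g (0.49, 0.77 and 0.20). None of the 30 was called by limma without the block. Counts higher and lower in all 3 pairs were 4 and 1 of 20 bZIP partners, 4 and 0 of 21 upstream genes and 5 and 2 of 16 feedback inhibitors. They were 4 and 1 of 19 AP-1 targets and 2 and 1 of 13 chaperones. Among the 16 feedback inhibitors, Spry4 had no value in the third pair, so it could not count in either direction. An increase in all 3 pairs was thus seen in 18 of the 30 other immediate early genes and in 4 of 20, 4 of 21, 5 of 16, 4 of 19 and 2 of 13 genes of the remaining lists. The 8 macrophage and leukocyte markers, with 6 higher in all 3 pairs, moved in the same pairs, and their part was not tested.

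The genes whose values tracked Fos and Egr1 most closely were found over 16 arrays, without TSP 1 and TSP 2, after each group mean was subtracted. Nearest to Fos, of 19973 genes, were Vcl (Pearson r 0.97), Nudt4, Map4k3, Cept1 and 2210409B22Rik (each 0.96). Among the nearest to Egr1 were TC1533348 (0.98), Mtmr3 (0.93), Slc25a3 and 1200016E24Rik (each 0.92). Within the 10 genes Fos was most like Jun (0.82), Fosl2 (0.78) and Egr1 (0.74), and least like Jund (-0.22). Egr1 was most like Jun (0.90), Fosl2 (0.84), Fos and Egr2 (each 0.74), and least like Junb (-0.28). The arrays share slides, so these correlations are descriptions and hold slide effects.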

How the data were processed

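Per the labels, each of 18 samples was hybridised in Cy5 with a common reference in Cy3 on Agilent 2-colour arrays without a dye swap. The deposited scanner files give spot intensity per channel, the scanner's log10 ratio and quality flags, written by Feature Extraction 9.5.1.1 per the file headers (8.5.1.1 per the submitters' processing notes), with probe coordinates of build mm7. The authors' deposited value table holds log2 values whose normalization and centring are unknown, and 9 of its 18 columns matched another array better than their own. Here mean intensities were background corrected (normexp, offset 50), loess normalised within arrays and expressed as log2 ratios in R 4.3.3 with limma 3.58.1. Spots of a probe were averaged, the probe with the highest mean intensity stood for a gene, and genes well above background on at least 3 arrays were kept. A fit of 4 groups was tested with limma, with Benjamini-Hochberg adjustment over 20455 genes and a threshold of 0.05. CMP and TMP arrays of the same number were taken as pairs: they share a slide, and their deviations from the group means correlated at 0.67 to 0.81 in 3 of 3 pairs. The 10 genes, the 6 pathway lists (other immediate early genes, bZIP partners, upstream kinases, feedback inhibitors, AP-1 targets and chaperones), the 6 marker lists and the naming rule (in each list, the 4 called genes with the largest differences) were chosen with earlier results of these data known. Alternatives were other background, ratio, scaling, filter, slide, replicate and probe settings, and leaving out arrays. Some genes that the naming rule selects are not reported here. The steps were tested on simulated data, with 100 genes given a difference of 1 log2 unit. With all arrays limma called 33 of them between CSP and CMP and 11 between TMP and CMP. Of 100 other genes given 2 log2 units it called 86 and 73. With the pair as a block it called 32 and 70 between TMP and CMP, so genes without a call may still differ. The simulated noise was independent between arrays, and fewer genes differed than were called between CSP and CMP. These shares therefore need not hold for the real arrays. Depth has no counterpart here, and the number of arrays limits precision.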

Additional observations from a re-analysis of the deposited data

Results flagged for a closer look

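Fosl1 on TSP 6 stood apart from the other arrays of its group. Its log2 ratio there was 2.38, the nearest TSP array was TSP 5 at 4.14, and the gap made up 0.653 of the whole range of the group. Each of the 12 probes was looked at in CSP and TSP, 24 groups in all, and this was the 1 that stood apart. Chance flags about 1 in 20 such groups, so 1 among 24 is about the number that chance gives. The raw intensities given above do not show this low value, which appears after background correction and normalization. Without TSP 6 the Fosl1 difference between TSP and CSP was -0.59.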

How the results depend on the processing

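Values of single genes were compared with the main fit over the settings tried, apart from those added after the data were seen. Of 1500 values, 1483 stayed without a call and 17 gained one, and 80 uncalled values had the other sign. The main fit called none of the 10 genes in any comparison, so no call could be lost. Many settings also leave out arrays that do not enter a given difference. The 1483 values are therefore no measure of stability. Between CSP and CMP, 3 of the 10 genes were called without TSP 1 and TSP 2, with only the arrays of both groups, with the slide as a random block and with the replicate block, 2 with the slide as a fixed block (also 2 without TSP 1 and TSP 2, a setting added after the data were seen), and 1, Fosl1, with the authors' deposited values. Leaving out 1 array gave 0 to 1 (Egr2, without TSP 1). Genes called numbered 3029 with all arrays, 3924 without TSP 1 and TSP 2, and 3666 with only the arrays of both groups. They were 5733 with the fixed and 5314 with the random slide block, and 4313 with the fixed block without TSP 1 and TSP 2. The replicate block, which used only CSP 1 to CSP 3 and CMP 1 to CMP 3, called 2536 genes. The authors' deposited values gave 2529. With 1 array left out they were 563 to 3342, 563 without CMP 2 and 1134 without CMP 1. Of called genes 51.4% were higher in CSP, and 61.7% with the fixed slide block. The scanner ratio moved the median of all genes by -0.12. Between TSP and TMP, 1 of the 10 was called without TSP 1 and TSP 2 and 2 with the slide block added, where Egr1 turned from -0.074 to 1.03; leaving out 1 array gave 0 to 0. Genes called, 0 with all arrays, were 3005 without both, 3215 with the slide block added, 221 with the fixed and 10 with the random slide block, 1 each with centring, scaling or no filter on dim probes, and 0 to 594 with 1 array left out (509 without TSP 1, 594 without TSP 2). Between TSP and CSP they were 944, 243 and 18 in the 3 slide fits, and 0 to 3 with 1 array left out. The causes were not tested. With the pair as replicate block, 6 genes and 0 of the 10 were called between TMP and CMP, and the block called none of the 10 after surgery or in the interaction. Replicate numbers of CSP and CMP did not pair, with correlations of -0.26 to 0.14, nor those of TSP and TMP, at -0.24 to 0.21. Leaving out 1 pair left 6 to 7 genes higher in the remaining pairs. That count could not fall below 6, since a gene higher in all 3 pairs is higher in any 2, so it is no check. The number of arrays, 3 per main population group, and the dim second Fosl2 probe limit what can be seen.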
